A study of Homo sapiens with 10 samples.

Results

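TWEAK was compared with no treatment in MDA-MB-453, an established HER2 breast cancer cell line, by H3K27ac ChIP-seq. The comparison rests on 4 peak lists of the 8 in the series, from 2 untreated and 2 TWEAK-treated libraries; the other 4 lists are from SKBR3, a second HER2 line. The protocol, the same for every sample, has an 8 h starvation in optimem. TWEAK was then given at 10 ng/ml for 48 h with a fresh dose at 24 h, and the labels give no vehicle for the untreated cells. Each group is 1 cell line, and the methods describe the libraries of a group as biological replicates.

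TWEAK is a cytokine of the TNF family that binds the receptor Fn14 (gene TNFRSF12A). The receptor recruits TRAF adaptors and IAP proteins, which lets NF-κB dimers of RELA, RELB, NFKB1 and NFKB2 enter the nucleus. NF-κB then induces its own inhibitors, among them NFKBIA, NFKBIE and TNFAIP3, as a negative feedback. H3K27ac, the acetylation of histone H3 at lysine 27, marks active promoters and enhancers.

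A region here is a stretch covered by overlapping peaks of any of the 4 lists, and a shared region has a peak in every one of them. The level of a shared region in a library is the percentile of the authors' fold enrichment over background among all shared regions, so that 0 is the weakest and 100 the strongest. Read counts were not used here and the depth of each library is unknown. Coordinates are in hg38.

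The 4 lists held between 36148 and 37813 peaks and covered between 70.5 and 72.1 Mb. ERBB2, the gene of HER2, had its promoter at the 99.99 percentile in every library, and the promoter of the luminal factor FOXA1 lay between 99.86 and 99.92. The basal keratin genes KRT5 and KRT14 and the blood cell markers PTPRC, CD14 and CD3E had no peak in any list near a transcription start site (TSS), that is, at most 1 kb away. Of the 9 basal and mesenchymal markers, TP63, VIM and ZEB1 did have a promoter peak in all 4 lists, and SNAI2 in 2. The promoter of CDH5, an endothelial marker, did have one, between the 87.7 and 89.7 percentiles. No library stood apart from the rest.

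The stretches shown first are chosen from the described regions that ranked higher with TWEAK, or were gained, and that hold a match to the NF-κB consensus. They are hg38 plus strand, with the match in capitals. Both strands were searched and overlapping matches were counted. Of the 31162 shared regions, 26.8% held a match anywhere, so a match is a description and not evidence of binding.

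Region nearest TCF20, chr22:42357707-42357796: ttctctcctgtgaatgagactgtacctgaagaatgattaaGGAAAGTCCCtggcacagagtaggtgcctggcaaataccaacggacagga
KLHDC7B promoter, chr22:50544779-50544868: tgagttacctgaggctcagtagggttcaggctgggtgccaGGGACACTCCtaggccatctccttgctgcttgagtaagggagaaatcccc
LRRC8E promoter, chr19:7888621-7888710: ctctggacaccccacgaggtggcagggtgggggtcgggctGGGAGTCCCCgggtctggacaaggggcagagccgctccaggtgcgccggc
TRAF3 promoter, chr14:102777376-102777448: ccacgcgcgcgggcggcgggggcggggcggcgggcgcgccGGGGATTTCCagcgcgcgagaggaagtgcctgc
NFKB2 promoter, chr10:102395299-102395388: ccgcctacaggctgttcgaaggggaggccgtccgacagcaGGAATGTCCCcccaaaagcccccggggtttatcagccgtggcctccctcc
NFKBIA promoter, chr14:35404781-35404870: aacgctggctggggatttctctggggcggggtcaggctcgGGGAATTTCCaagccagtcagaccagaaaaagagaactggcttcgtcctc
TNFAIP3 promoter, chr6:137867152-137867213: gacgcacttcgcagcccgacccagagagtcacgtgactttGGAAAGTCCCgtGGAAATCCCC
BIRC3 promoter, chr11:102317245-102317398: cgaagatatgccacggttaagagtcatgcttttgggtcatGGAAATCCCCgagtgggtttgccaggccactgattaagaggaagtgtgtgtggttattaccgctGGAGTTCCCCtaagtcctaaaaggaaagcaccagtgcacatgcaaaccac
IRF1 promoter, chr5:132491384-132491473: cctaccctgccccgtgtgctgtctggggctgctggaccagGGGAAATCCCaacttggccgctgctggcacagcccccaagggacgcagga
TRAF2 intron, gained region, chr9:136902528-136902649: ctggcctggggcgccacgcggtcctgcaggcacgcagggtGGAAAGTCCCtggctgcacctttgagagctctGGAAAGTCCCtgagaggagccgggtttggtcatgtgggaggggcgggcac
ITGAM intron, gained region, chr16:31269630-31269719: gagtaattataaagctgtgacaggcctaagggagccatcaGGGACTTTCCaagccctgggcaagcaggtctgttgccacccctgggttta

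The first question was how far TWEAK moved the rank of H3K27ac at regions that all 4 libraries share. The shared regions were 72.8% of the 42831 regions. Their ranks were close between libraries, with a Spearman correlation across regions of 0.965 for the untreated pair, 0.964 for the TWEAK pair and 0.957 to 0.961 for pairs that differed in treatment. The percentile of a region differed by a median of 3.93 to 4.13 points between an untreated and a TWEAK library, by 3.64 points between the untreated libraries and by 3.78 points between the TWEAK libraries. A mean shift over 25 points was seen at 70 of the 31162 shared regions.

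The test across all 31162 shared regions was limma on normal scores of the ranks, with Benjamini-Hochberg adjustment. It called 0 regions (0% of those tested), with a lowest adjusted p of 0.537. At an unadjusted p under 0.05 there were 2257 regions (7.24%), of which 1067 (3.42%) were higher and 1190 (3.82%) lower with TWEAK. The groups did not overlap, in that both TWEAK libraries lay on the same side of both untreated libraries, at 6009 regions that were higher (19.3%) and 5964 that were lower (19.1%). The values below describe regions chosen by the width of the gap between the groups, none of which passed the adjusted threshold in this test.

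**Figure D1:**
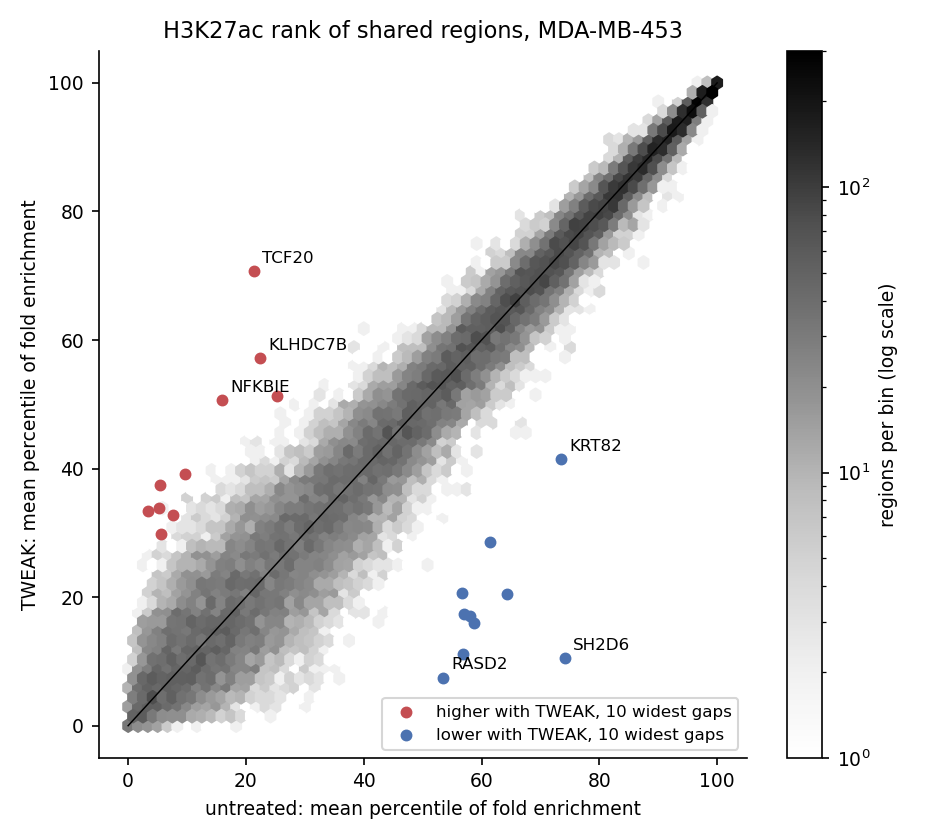
Mean percentile of fold enrichment in the TWEAK libraries (y axis) against the untreated libraries (x axis) for 31162 shared regions, in bins shaded by the number of regions on a log scale. The line marks equal percentiles; red and blue points are the 10 regions with the widest gap in each direction, and the region nearest TCF20 lies farthest above the line among the red points.

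The widest gap among regions higher with TWEAK was at chr22:42356870-42359163, outside genes and 13.3 kb from the TSS of TCF20, which encodes a transcriptional coregulator. Its percentile was 24.5 and 18.2 in the untreated libraries and 71.3 and 70.2 in the TWEAK libraries. Both TWEAK libraries stood above both untreated ones, with a gap of 45.6 points. The authors' fold enrichment there was 3.81 and 3.59 without TWEAK and 8.91 and 8.52 with it. The difference in normal scores was 1.34 ± 0.114 (SE, n = 2 per group; limma, adjusted p = 0.537), and the peak was also wider with TWEAK, by 1.11 on the log2 scale.

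Next in order was the promoter of NFKBIE, which encodes the NF-κB inhibitor IκBε, at chr6:44264137-44265915. The percentile was 9.29 and 22.5 in untreated cells and 50.9 and 50.3 with TWEAK. The TWEAK libraries were close to each other, while the untreated libraries were farther apart, and the gap between the groups was 27.8 points. The normal score difference was 1.05 ± 0.217 (SE, n = 2 per group; limma, adjusted p = 0.546).

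The promoter of KLHDC7B, a kelch domain gene, had percentiles of 20.2 and 24.6 without TWEAK and 51.1 and 63.3 with it. The region nearest GK2 on chromosome 4 had 26.3 and 24.2 against 51.4 and 51.1, and the one 2.02 kb from FAM25A had 5.21 and 1.39 against 29.7 and 37.2. LRRC8E, a subunit of volume-regulated anion channels, had a promoter region at 3.51 and 7.31 without TWEAK and at 30.6 and 44.4 with it. These regions were low in untreated cells, and the groups did not overlap at any of them. The other 4 of the 10 were nearest SP100, NPM2, GJB1 and FNDC10, with untreated percentiles between 1.08 and 13.9 and TWEAK percentiles between 28.8 and 41.4.

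Among regions lower with TWEAK, the widest gap was at chr2:85445021-85447104, 15.6 kb from the TSS of SH2D6, a gene for an SH2 domain protein. Its percentile was 77.6 and 70.7 without TWEAK and 11.5 and 9.56 with it, and the fold enrichment was 10.8 and 8.92 against 3.26 and 3.21. This was the largest shift in either direction among the 20 regions named by gap, at −63.6 points. The difference in normal scores was −1.90 ± 0.119 (SE, n = 2 per group; limma, adjusted p = 0.537).

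RASD2, which encodes a small GTPase, was nearest to a region at percentiles of 50.1 and 56.9 in untreated cells and 2.10 and 12.8 with TWEAK. A region in an intron of RNF185, nearest the TSS of the cofilin kinase gene LIMK2, had 61.1 and 67.7 against 15.6 and 25.3. In contrast to the regions that were higher, these began in the middle of the ranks. An intergenic region 447 kb from JARID2, a partner of Polycomb complex 2, had 59.3 and 56.8 without TWEAK and 21.3 and 12.9 with it. Regions over exons of MTMR12 and of TMPO, the gene of a nuclear lamina protein, and regions nearest PLAAT1, CREG1, KRT82 and KLHDC4 made up the 10. Their untreated percentiles lay between 53.0 and 76.7 and their TWEAK percentiles between 1.58 and 41.5.

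**Figure D2:**
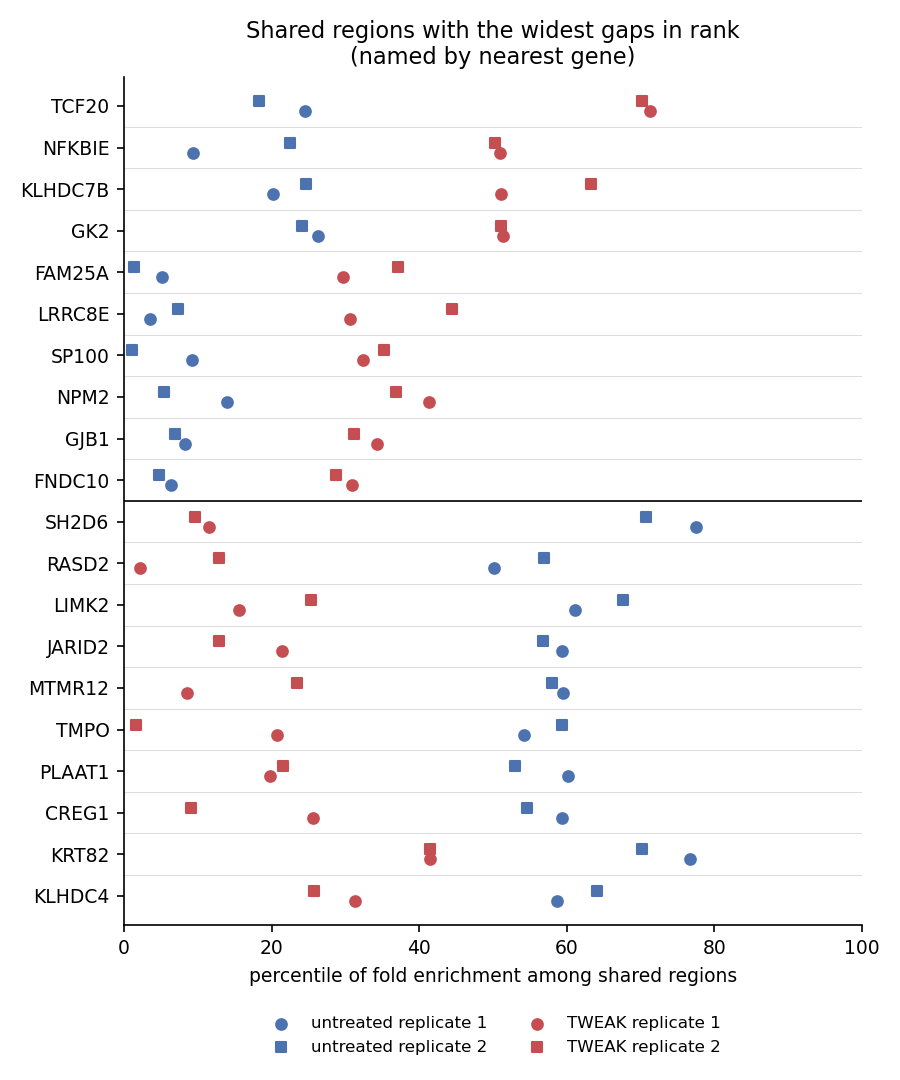
Percentile of fold enrichment (x axis, 0 to 100) in each of the 4 libraries for the 10 shared regions with the widest gap in each direction, named by the nearest gene. Points are single libraries, blue for untreated and red for TWEAK; above the line the red points are to the right of the blue, with TCF20 at 70.2 and 71.3 against 18.2 and 24.5, and below it the red points are to the left.

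The call depended on the scale. On median-centred log2 fold enrichment, fitted with limma in the same way, 16 regions passed (0.0513% of 31162), 1 higher and 15 lower. With the variance allowed to change with the mean level, a fit added after the data were seen, 15 passed (0.0481%), 6 higher and 9 lower. Both fits called 9 of the same regions, so that 22 regions were called by at least 1 of them. The groups did not overlap on the rank scale at any of the 22.

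SH2D6 and TCF20 were nearest to the regions with the lowest adjusted p in the log2 fit, 5.998e-04 and 0.0012. The enrichment near SH2D6 was 2.99-fold lower with TWEAK, and that near TCF20 was 2.40-fold higher. The promoter region of SYNGR2, a synaptogyrin gene, was called by both fits, with fold enrichments of 17.8 and 18.5 in untreated cells and 9.72 and 8.52 with TWEAK. The promoter of SARS1, the seryl-tRNA synthetase gene, was at 13.9 and 11.4 against 6.75 and 6.15. An intergenic region on chromosome 8, 689 kb from the nearest TSS, that of MYC, had 19.5 and 18.1 against 10.8 and 10.5 (limma, adjusted p = 0.0265). These 3 had untreated percentiles between 80.1 and 93.8, above those of the 20 regions with the widest gaps.

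The fit with the trend also called regions at high levels that were higher with TWEAK. The region nearest DEGS1, a ceramide synthesis gene, had fold enrichments of 23.8 and 21.4 without TWEAK and 33.9 and 35.4 with it. The promoter of RNF187 had 16.0 and 15.2 against 22.9 and 21.5, and that of XRCC1, a single-strand break repair gene, 12.9 and 13.0 against 19.4 and 18.1. Promoters of LZIC and RNF103-CHMP3 were also called, at 1.38-fold and 1.36-fold higher. In this fit the lower group included an intronic region of GHR, the growth hormone receptor gene, with 20.6 and 20.3 against 13.5 and 13.3 (limma with trend, adjusted p = 0.0325).

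Genes of the TWEAK pathway were then examined at their promoters. Over all 11237 protein-coding genes with a shared region within 1 kb of a TSS, the groups did not overlap at 23.9%, higher with TWEAK, and at 13.6%, lower, and 3.22% had an unadjusted p under 0.05 (2.08% higher). The median difference was 0.43 points. Of regions over 1 kb from a TSS, 17.1% were higher and 21.6% lower without overlap. The split at promoters depends on the scale. For the 10541 regions there it was 2481 higher and 1520 lower by rank. By median-centred log2 fold enrichment it was 1802 higher and 2272 lower. Fold enrichment can fall at the strongest regions with no fall in rank. The ERBB2 promoter, at the 99.992 percentile in every library, had 63.047 and 59.972 untreated against 55.599 and 49.651 with TWEAK. The mean of the list medians went only from 4.96 to 4.88. Whether the log2 counts of lower promoters in the gene lists below exceed such a fall was not tested. None of the promoters described next passed the adjusted threshold.

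All 9 genes listed as NF-κB feedback inhibitors had a shared promoter region, and the role of each was not tested. At 4 of them, NFKBIA, NFKBIE, TNFAIP3 and TNIP2, both TWEAK libraries were above both untreated ones, at 0 they were below, and 3 had an unadjusted p under 0.05. These counts of 4 and 0 were the same by −log10 q rank and by median-centred log2 fold enrichment. The median difference over the 9 was 8.64 points, and omitting each library in turn gave 5.23 to 8.88 points. The 15 distal shared regions nearest to these genes did not show this, with 2 higher and 4 lower without overlap and a median difference of 0.08 points, and 3 of the lower ones were nearest TNFAIP3.

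NFKBIA encodes IκBα, the main cytoplasmic inhibitor. Its promoter was at percentiles of 68.5 and 68.2 in untreated cells and 76.7 and 77.2 with TWEAK. The replicates differed by less than 1 point, and the mean difference was 8.64 points (limma, adjusted p = 0.667). TNFAIP3, the gene of the ubiquitin-editing enzyme A20, had 31.0 and 33.9 against 45.2 and 48.8, and its groups did not overlap. TNIP2, a partner of A20, had 58.7 and 59.4 against 64.7 and 73.9. CYLD, a deubiquitinase gene, overlapped, with 8.15 and 28.7 against 19.98 and 46.8, as did NFKBIB, NFKBIZ, BCL3 and TNIP1.

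Of the 18 genes for TWEAK, its receptor, adaptors, IAP proteins, kinases and NF-κB subunits, 16 had a shared promoter region. The groups did not overlap at 6 that were higher and 2 that were lower with TWEAK, and the median difference was 0.34 points; on the log2 scale the counts were 5 and 4. The promoter of the receptor gene TNFRSF12A did not separate the groups, with 75.3 and 72.2 against 73.8 and 78.6. The adaptor gene TRAF3 had 3.89 and 11.1 in untreated cells and 28.2 and 36.2 with TWEAK (limma, adjusted p = 0.554), the largest difference among the 16. BIRC3, which encodes the IAP protein cIAP2, had 51.0 and 44.5 against 57.1 and 60.9.

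Among the subunits, NFKB2, the gene of p100 and p52, had 77.1 and 80.2 without TWEAK and 87.5 and 85.2 with it. REL had 41.8 and 42.2 against 47.3 and 49.1. The promoters of RELA, RELB and NFKB1 lay above the 91 percentile in every library and their groups overlapped. So did those of the kinase genes MAP3K14, CHUK and IKBKG, whereas the groups did not overlap at IKBKB, with 89.2 and 86.2 against 83.7 and 85.5. The promoters of TRAF2 and TRAF6 were the other pair higher with TWEAK, but the groups were nearly in contact. TRAF2 had 62.0 and 53.6 against 66.4 and 62.1, a gap of 0.055 points. TRAF6 had 50.2 and 33.0 against 50.3 and 53.5, a gap of 0.11 points. The promoter of TRAF5 was lower by 0.956 points.

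**Figure D3:**
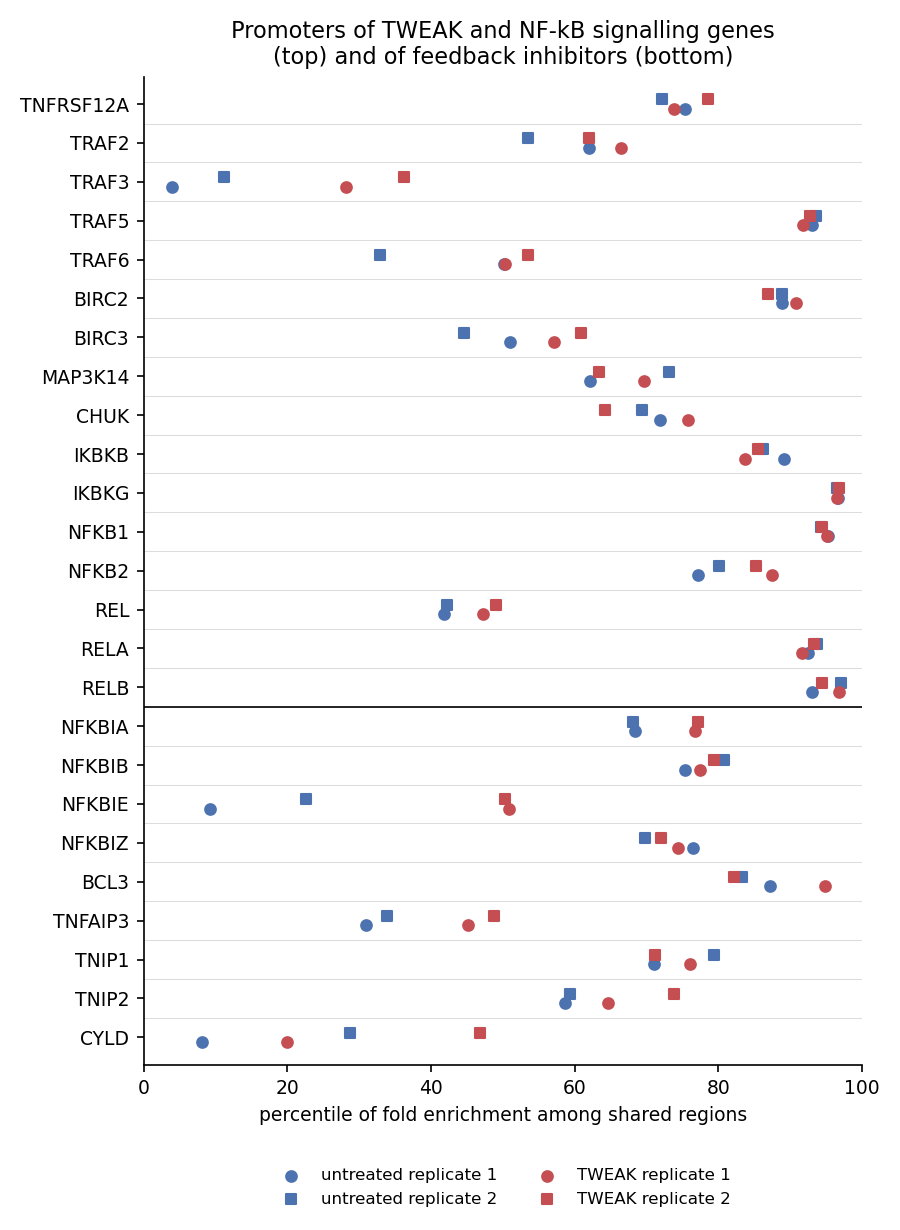
Percentile of fold enrichment (x axis, 0 to 100) of the promoter region in each library. Above the line are 16 genes of TWEAK and NF-κB signalling, and below it 9 genes listed as NF-κB feedback inhibitors. Points are single libraries, blue for untreated and red for TWEAK; the groups separate most at NFKBIE (9.29 and 22.5 against 50.9 and 50.3) and TRAF3, and overlap at TNFRSF12A and RELA.

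Of 30 NF-κB target genes for cytokines, adhesion and survival, 11 had a shared promoter region. Promoters of CCL2, CCL5, CCL20, CXCL1, IL6, TNF and VCAM1 had a peak in 0 of the 4 lists. IRF1, an interferon pathway factor, was the member that was higher without overlap, with 58.6 and 60.7 against 72.7 and 78.1 (limma, adjusted p = 0.594). CXCL8 was the member that was lower, with 40.2 and 43.98 against 29.1 and 35.2. The median difference over the 11 was −0.06 points, and on the log2 scale 1 was higher and 6 were lower.

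The 12 shared promoters of AP-1 and small MAF factors held 3 that were higher without overlap, JUN, JUNB and MAFG, and 4 that were lower, FOS, FOSB, FOSL2 and MAFK. FOS had 89.2 and 87.3 in untreated cells and 84.3 and 82.6 with TWEAK. JUN had 96.8 and 96.1 against 97.6 and 98.2. On the log2 scale 1 of the 12 was higher and 6 were lower, and the difference at JUNB was on the other side of zero. The median difference over the list was −0.43 points by rank and −0.09 on the log2 scale. Among 13 luminal and apocrine markers, KRT8 and KRT18 share 1 region. By rank 3 of the 13 were higher and 4 lower, and on the log2 scale 1 was higher and 7 were lower. ERBB2, with no change in rank, is one of these markers. The larger log2 counts of lower promoters therefore do not by themselves show a loss at these genes. Of the 3 shared promoters of basal and mesenchymal markers, 1 was higher, 1 was lower and VIM overlapped. ZEB1, a mesenchymal factor, had 69.1 and 71.4 against 58.1 and 51.2 (limma, adjusted p = 0.606), and TP63 had 32.6 and 27.7 against 36.3 and 34.5. The 4 genes the study singled out, NAMPT, MAFG, ITGAV and KIF18A, differed by a median of 1.17 points, and NAMPT had 92.2 and 90.8 against 92.3 and 93.7.

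Width was compared next, as the base pairs of a shared region that a library's peaks cover. Its median lay between 1620.5 and 1650 bp in the 4 libraries. limma on log2 width called 0 of 31162 regions (0%), with a lowest adjusted p of 0.338 and 1824 regions (5.85%) at an unadjusted p under 0.05, 892 (2.86%) wider and 932 (2.99%) narrower. The groups did not overlap at 5612 regions that were wider with TWEAK (18.0%) and 5376 that were narrower (17.3%). Of the 31162 regions, 308 were wider and 344 narrower by over 2-fold in the mean width.

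Shifts in width were nearly unrelated to shifts in rank, with a Pearson correlation across the 31162 regions of 0.016. Taken alone, rank was higher without overlap at 19.3% and lower at 19.1% of the 31162 regions, and peaks were wider at 18.0% and narrower at 17.3%. Both measures were higher without overlap at 944 regions, and both lower at 1082. They moved in opposite directions at 1244 regions, with a higher rank and narrower peaks, and at 1211 with the reverse. Regions that moved the same way on both measures were thus no more frequent than those that moved in opposite ways.

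The widest gap among wider peaks was in an intron of TP63, the basal epithelial factor, at chr3:189710051-189713573. The width there was 547 and 499 bp in untreated cells and 2763 and 3523 bp with TWEAK, a difference of 2.58 ± 0.165 (SE, n = 2 per group) on the log2 scale (limma, adjusted p = 0.338). Its percentile overlapped, with 17.6 and 24.6 against 7.91 and 20.3. Regions nearest CDC42EP3, CDH26, TMEM252 and FAM135B had widths between 208 and 276 bp without TWEAK and between 948 and 1117 bp with it. The region nearest TMEM38B had 3229 and 2071 bp against 314 and 210 bp. The other narrower regions, nearest OR1I1, GADD45G, NWD2 and XRRA1, had between 927 and 1325 bp against between 228 and 311 bp. All 10 ranked low, with percentiles between 1.14 and 33.3.

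**Figure D4:**
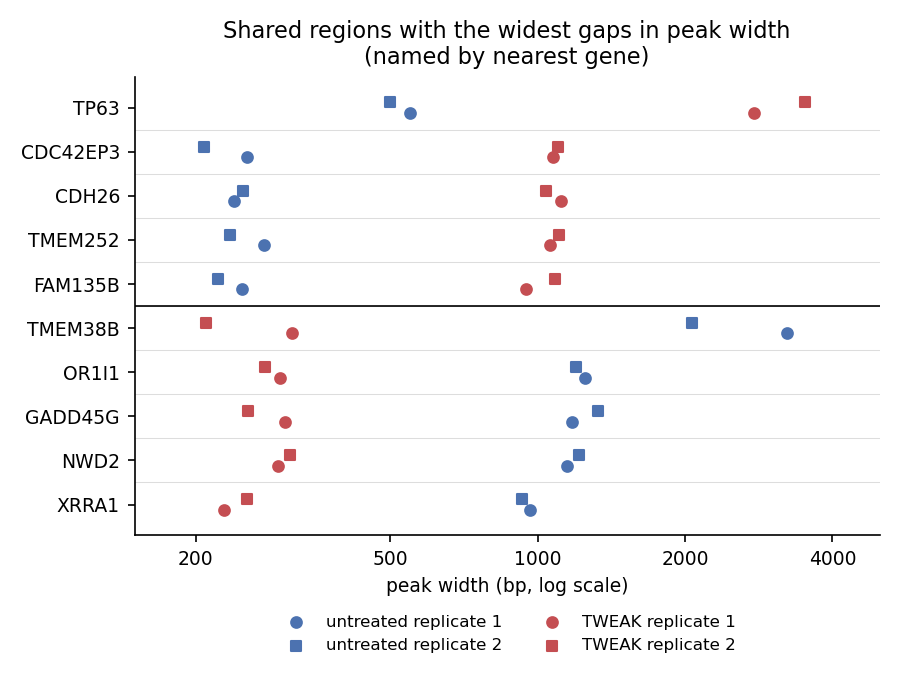
Peak width in bp (x axis, log scale) in each library for the 5 shared regions with the widest gap in each direction, named by the nearest gene. Points are single libraries, blue for untreated and red for TWEAK; in the upper rows the TWEAK peaks are the wider, at TP63 2763 and 3523 bp against 547 and 499 bp, and in the lower rows the narrower.

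Gained regions are those with a peak in each TWEAK list and in no untreated list, and lost regions the converse. There were 570 gained regions (1.33% of 42831) and 558 lost regions (1.30%), so the numbers were alike in either direction. Both sets were weak: the median percentile among all peaks of a list was 11.3 for gained and 13.2 for lost regions, against 57.1 for shared regions, and the highest was 46.6 and 47.2. Peaks of gained regions had a median width of 485.5 bp and those of lost regions 556.75 bp. A q-value under 1e-05 in both lists that held the region was found for 3 gained and 0 lost regions. Whether regions absent from a list lay just under the threshold of the peak caller was not tested.

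Of the gained regions 61 (10.7%) lay within 1 kb of a protein-coding TSS, against 24 lost regions (4.30%) and 33.8% of shared regions. Introns held 251 gained and 269 lost regions. Gained regions were nearest to 532 protein-coding genes (2.71% of 19618) and lost regions to 530 (2.70%), and 37 genes were nearest to both kinds. Only FLRT2 was nearest to 3 gained regions, all of them between 299 and 1715 kb from its TSS, and no gene was nearest to 3 lost regions.

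The 10 gained regions with the highest mean percentile included 1 that is not described here. One lay in an intron of FAM178B at percentiles of 43.9 and 43.2. An intron of TRAF2, the adaptor that Fn14 recruits, held a gained region at chr9:136901343-136903448, with percentiles of 37.4 and 45.0 in the TWEAK lists, fold enrichments of 3.93 and 4.51, and the pair of NF-κB matches printed above. It is a second site at this gene, 11.8 kb from the nearest TSS of TRAF2. A gained region in an intron of ITGAM, an integrin gene, had percentiles of 35.6 and 47.4 and 1 match. Others were nearest VAPA, TNS3, PSMG1 and ODC1, the gene of the rate-limiting enzyme of polyamine synthesis.

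Gained promoters were led by ZNF585A, a zinc finger gene, at 34.9 and 41.4, and SCML2, a Polycomb gene, at 36.0 and 35.0. The next were ZNF516, FOXP2 and FOXD3, transcription factor genes, with percentiles between 19.2 and 39.2. PGC, CCDC71L, S100A8, GPC1 and SLC5A11 followed. S100A8, a calprotectin subunit gene of inflammation, had 16.9 and 31.8. By the definition of a gained region, none of these regions had a called peak in an untreated list. Whether other TSS of the same genes had one is not given.

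Lost regions were led by one in an intron of SLC43A1, an amino acid transporter gene, at percentiles of 36.6 and 57.7 in the untreated lists. A lost region 40.2 kb from KLHDC4 had 44.6 and 39.6, and a shared region nearest the same gene was among the 10 with the widest gap downwards. Others were nearest CLIP1, BRINP1, DHFR2, TRPC7, CREG2 and SNX13. Regions at a TSS of NFE2L1, a stress response factor, and BEST1 were also lost, at 22.6 and 46.2 and at 32.5 and 35.8. Further lost regions within 1 kb of a TSS were at PLEKHA5, PBRM1, PKD1L2, NCOA2, DOK7, FGF21, SNRPN and LOXL1, with percentiles between 7.91 and 41.2. A TSS here is that of any protein-coding transcript, so it may not be the main one of the gene. Whether other promoters of these genes kept a peak is not given.

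Members of the pathway lists had regions in both sets. Of the receptor, adaptor and NF-κB genes, TRAF2 was nearest to a gained region, and TRAF5 and NFKB1 to 1 lost region each. SDC4 had a gained region at 7.54 and 7.15 in its intron, while CD82 and CD83 were nearest to lost regions. NFKBIA was nearest to a lost region 34.6 kb away, at 8.71 and 16.6, although its promoter was higher with TWEAK. CDH2 had 1 gained and 1 lost region, and TRPS1 had 2 gained.

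The sequence of the regions was not used to choose them. Motifs were searched in the 1000 bp around the midpoint of each region, as the NF-κB consensus and as the AP-1 site TGACTCA or TGAGTCA, which are the same site on opposite strands. An NF-κB match was in 13.5% and an AP-1 match in 19.7% of shared regions. Promoters hold more NF-κB matches than other regions (20.4% against 10.0%), so regions over 1 kb from a TSS, called distal, are described first.

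Ordered by their difference in normal scores, the 20621 distal shared regions were divided into 10 bins of equal size. The NF-κB share was 7.46% in the bin with the lowest differences, 9.75% in the fifth and 13.0% in the bin with the highest. It was not higher at every step, with 8.10% in the third bin after 9.17% in the second. The AP-1 share was 22.98% at the low end and 25.1% at the high end, and that of the forkhead site TGTTTAC 25.1% and 26.1%. The mean level was alike at both ends, with percentiles of 20.3 and 18.3, as was the GC content, 43.4% and 43.5%. Over all shared regions, promoters included, the NF-κB share went from 8.53% to 15.5%.

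The 100 distal regions with the widest gap upwards held an NF-κB match in 20 cases, and the 100 with the widest gap downwards in 10, while AP-1 was found in 28 and 24. These sets were chosen after the data were seen and are given with no test. Of the named regions higher with TWEAK, those at TCF20, KLHDC7B and LRRC8E held a match in the window.

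**Figure D5:**
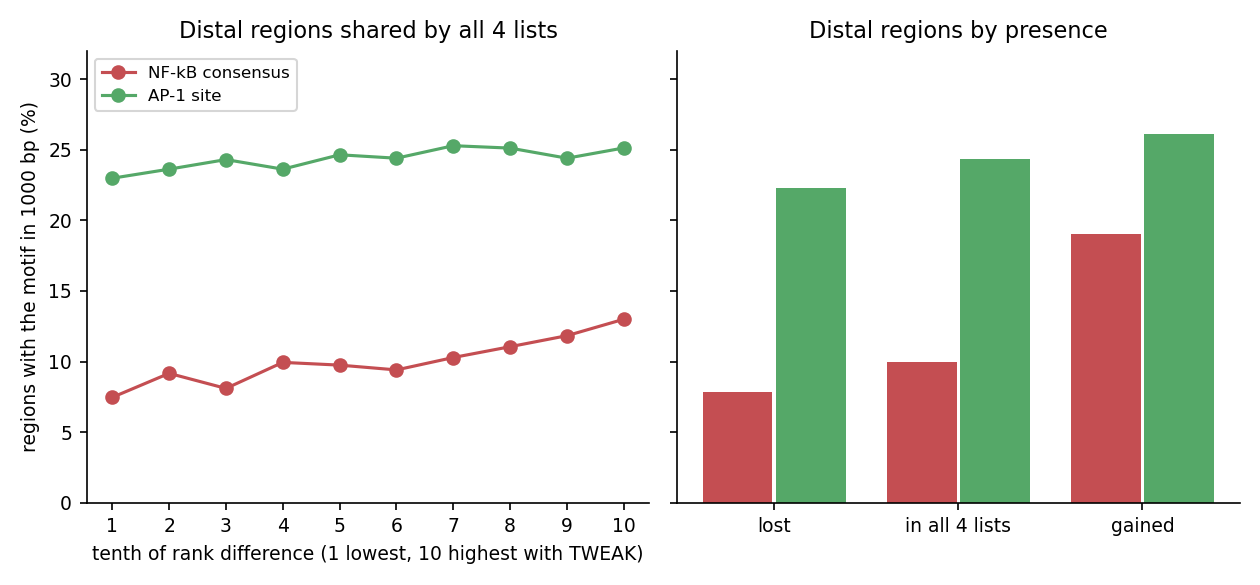
Share of distal regions (y axis, %) with an NF-κB consensus (red) or an AP-1 site (green) in 1000 bp. The left panel orders shared regions by rank difference in 10 bins, and the NF-κB line goes from 7.46% to 13.0%; the right panel gives lost, shared and gained regions, with 7.87%, 10.0% and 19.1% for NF-κB.

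Presence gave the same order. Of the 509 distal gained regions 97 (19.1%) held an NF-κB match, and of the 534 distal lost regions 42 (7.87%). The mean GC content was 43.6% and 43.3%. With promoters included, the shares were 19.5% of 570 gained and 8.24% of 558 lost regions, and the values that follow are over these. Within windows of 40 to 50% GC the shares were 50 of 254 gained and 20 of 270 lost regions, and 1132 of 11666 (9.70%) shared ones. In windows under 40% GC they were 16 of 182 and 5 of 188, against 4.52% of shared ones. In windows of 50% GC or more they were 45 of 134 and 21 of 100. There the lost share (21.0%) was close to the shared one (21.7%). Lists kept to peaks with q under 1e-05 gave other sets, of 291 gained and 320 lost regions, of which 3 and 0 were gained or lost in the full lists and 278 and 316 had a peak in all 4 of them. The consensus was in 64 (21.99%) of the former and 24 (7.50%) of the latter. With each library omitted in turn the gained share lay between 12.9% and 15.0% and the lost share between 7.97% and 9.02%. The share of regions shared by the 4 full lists was 13.5%, so the gained share was then near it. No p is given, since the regions come from the same 4 libraries.

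SKBR3 served as the comparison line for the regions named. Percentiles there are among all peaks of a SKBR3 list. The region nearest TCF20 had 79.8 and 74.1 in untreated SKBR3 and 93.5 and 96.0 with TWEAK. The KLHDC7B promoter had 89.2 and 83.4 against 98.9 and 99.8, and the NFKBIE promoter 63.6 and 52.1 against 71.2 and 73.7. Of the 10 regions with the widest gap upwards, 5 had a peak in all 4 SKBR3 lists, and these 3 were higher there without overlap; 0 were lower. Of the 10 downwards, 2 had a peak in all 4 SKBR3 lists, and neither separated the SKBR3 groups.

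Over the 18861 shared regions with a peak in all 4 SKBR3 lists, the SKBR3 groups did not overlap at 16.1%, higher with TWEAK, and at 19.7%, lower. Of the 15 promoters of receptor, adaptor and NF-κB genes among them, 5 were higher and 2 lower in SKBR3. Of the 9 genes listed as feedback inhibitors, 2 were higher and 1 lower. The shares above include distal regions, and the shares for promoters alone are not given for SKBR3. NFKB2 had 93.0 and 90.4 against 97.2 and 96.6, and BIRC3 had 62.5 and 46.3 against 85.0 and 90.5. TRAF6, higher in MDA-MB-453 by a gap of only 0.11 points, was lower in SKBR3 without overlap. It had 83.2 and 76.0 against 74.4 and 61.5, and CHUK and TNIP1 were also lower there without overlap. The SKBR3 groups overlapped for NFKBIA and TNFAIP3. Whether the lines differed was tested with a line by TWEAK interaction in limma over the 17704 regions in all 8 lists, which called 0 (0%), with a lowest adjusted p of 0.203 and 1371 regions (7.74%) at an unadjusted p under 0.05. Over these regions the shift in MDA-MB-453 and the shift in SKBR3 had a Pearson correlation of 0.029, with no library in common. The standard deviation of the shift over regions was 0.198 normal score units in MDA-MB-453 and 0.369 in SKBR3.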

How the data were processed

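H3K27ac ChIP-seq peak lists of 4 MDA-MB-453 libraries were used, 2 untreated and 2 TWEAK-treated, with 4 SKBR3 lists for the line comparison; 2 input samples had no list here. Reads had been aligned by the authors (Bowtie2, hg38), peaks called for each library by MACS2 with input subtracted, and blacklisted regions removed by bedtools. The calling options are not given in the sources used here. The deposited lists give a score (not used beyond a check of its range), the authors' fold enrichment as a ratio, and −log10 values of p and q. The study compared signal with DiffBind, which needs reads; depth is unknown, so ranks within lists were compared.

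Peaks on chromosomes 1 to 22 and X overlapping by 1 bp were merged, and shared regions were ranked by fold enrichment, taking the strongest peak. The normal scores and the log2 widths were fitted with limma 3.58.1 (R 4.3.3), and a Benjamini-Hochberg adjusted p under 0.05 was a call. The fit was also run on simulated ranks in which regions of similar level had the same spread. That run does not show which shifts could be called in these data. Genes came from GENCODE 44, by the nearest TSS of any protein-coding transcript. The medians of peak width and fold enrichment per list were compared by exact two-sided permutation (smallest p 0.333). Median width was 1413.5 ± 23.3 bp (SD, n = 2) untreated and 1410.5 ± 3.54 bp (SD, n = 2) with TWEAK (exact p = 1), and median fold enrichment 4.96 ± 0.107 and 4.88 ± 0.0406 (exact p = 0.667).

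Named regions were the 10 with the widest gap in percentile in each direction, the 5 with the widest gap in log2 width, the 10 gained and 10 lost regions with the highest mean percentile and up to 10 at promoters, genes nearest to 3 or more such regions, and members of 8 gene lists. The regions, lists and comparisons were chosen with earlier results of these data known. Sequences were read from hg38. One gained region and some other items are not reported here.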

Additional observations from a re-analysis of the deposited data

How the results depend on the processing

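Rank calls stayed at 0 under 8 of the 10 alternatives run: −log10 q rank, 1 peak per list, the stricter threshold (q under 1e-05), the replicate block and each of the 4 libraries left out. They were 16 on median-centred log2 fold enrichment and 15 with a mean-variance trend. The cause was not tested. Width calls and line interaction calls were 0 under every alternative run. In limma the count at an unadjusted p under 0.05 ranged over the 10 rank alternatives from 1568 (stricter threshold, 19959 regions) to 2699.

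The replicate number was also fitted as a block. Residuals of same-numbered libraries had a correlation of −0.024, and whether these libraries were prepared together is not known. The block left rank calls at 0, width calls at 0 and interaction calls at 0.

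At the stricter threshold there were 291 gained and 320 lost regions, nearest to 279 and 311 genes. These were other regions: 278 and 316 of them had a peak in all 4 full lists. With 50% of the region required there were 821 gained and 876 lost regions, and lists of equal size gave 520 and 593. Without 1 library, where a single list then stands for its group, there were 1173 to 2198 gained regions (1043 to 1805 genes) and 1164 to 2319 lost regions (1045 to 1928 genes).

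The difference in median width, −3 bp, turned to 11 bp at the stricter threshold and 7.75 bp with lists of equal size, and ranged from −19.5 to 13.5 bp without 1 library. That in median fold enrichment stayed negative, from −0.156 to −0.00531 without 1 library.

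Of 86 single regions under 7 alternatives, 11 became calls, all on median-centred log2 fold enrichment. JUNB (−0.0554) and TFAP2A (−0.0146) reversed there. Depth is unknown, and 2 libraries per group limit every test.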
